A study of Mus musculus with 2 samples.

Results

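Follicular-type B cells of the aorta were taken by a rule on unique molecular identifiers (UMIs, the tags that count captured RNA molecules). A cell was a member with at least 3 UMIs summed over Cd79a, Cd79b and Ms4a1. It also had to hold at most 1 UMI of Cd3d, Cd3e and Cd3g together, at most 2 of the C1q genes C1qa, C1qb and C1qc, and at most 2 of Lyz2. Members were thus chosen by the measured counts of these genes. Finally, a member could hold at most 1 UMI over the innate-like B cell genes Zbtb32, Mzb1, Tppp3, Ankrd33b and Fam43a. The rule gave 386 members among 2957 kept cells, 86 of 896 in the chow library and 300 of 2061 in the WD library.

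The cells came from atherosclerotic aortas of ApoE-/- mice of the C57BL6/J strain, which lack apolipoprotein E and so clear lipoproteins poorly. One group was fed chow and the other WD, an abbreviation that the labels do not spell out, and both groups carry the same deletion. Viable CD45+ leukocytes were sorted, and those of 10 aortas went together into the 1 droplet library of each diet, so that diet and library cannot be told apart and no test between diets was possible. The labels give no age or sex and no time on the diet. All intervals below are exact 95% intervals and cover counting error only.

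Follicular B cells are the recirculating B cells of conventional immune responses. Their antigen receptor signals through the CD79A and CD79B chains, and they enter lymphoid follicles along chemokine gradients and present captured antigen on MHC class II molecules. Around atherosclerotic arteries B cells are found mainly in the outer vessel wall and in nearby lymphoid aggregates, and innate-like B cells such as B-1 cells form a separate lineage known for natural antibody.

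The chow library held 909 barcodes and the WD library 2077, and 3 barcode sequences occurred in both, none of them in a member. The median member held 2509.5 UMIs and 917.5 genes in chow and 2251 UMIs and 822 genes in WD, against 4011 and 3495 UMIs in all other kept cells. Summed over members, this gave 235225 UMIs in chow and 709100 in WD. Markers of other cell types were few in members. A Cd3 gene UMI was found in 5 chow and 5 WD members, a C1q gene UMI in 6 and 15, and a Lyz2 UMI in 9 and 16. The rule itself limits these genes. The marker lists of T cells and macrophages include genes that the rule limits, so their sums are in part set by the rule. The 9 T cell markers in the files summed to 128 and 95.9 CPM (UMIs scaled to a common library total), with 2 and 1 of them at 0. The 10 macrophage markers summed to 85.0 and 49.4 CPM, with 5 and 4 at 0. The part of such cells in the results was not tested. The limits also removed 41 chow and 82 WD cells with B cell UMIs, whose median depths of 10308 and 8122.5 UMIs were above those of members.

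The B cell markers Ebf1 and Fcmr were found in most members, and the follicular-type markers Fcer2a and Cr2 in fewer. Other B cell genes were also found in fewer, such as Cd22 (27.9% of chow and 27.3% of WD members) and Spib (32.6% and 24%). Ebf1, a transcription factor that sets B cell identity, was found in 94.2% of chow members (81 of 86) and 95% of WD members (285 of 300), against 2.03% and 0.960% of T cells. Fcmr, the receptor for the constant part of IgM, was found in 69.8% and 67.3% of members and in 1.01% and 0.840% of T cells. Median depths of the T cells were 3661 and 3258 UMIs, above those of members. With each cell thinned to 1000 UMIs, Ebf1 was found in 76.7% and 77.3% of members and in 0% and 0.240% of T cells. In thinned cells Fcmr was found in 41.9% and 40.7% of members against 39.3% and 37.9% of innate-like B cells, and these intervals overlap. The follicular marker Fcer2a (CD23, the low-affinity IgE receptor) had a UMI in 47.7% and 38.3% of members, and innate-like B cells also held it, in 36.1% and 30% of cells. Cr2 (CD21, a complement receptor that is also high on marginal zone B cells) was found in 24.4% and 15.7% of members. In thinned cells Cr2 was found in 5.81% and 5.33% of members against 4.92% and 8.42% of innate-like B cells, and these intervals overlap.

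**Figure D1:**
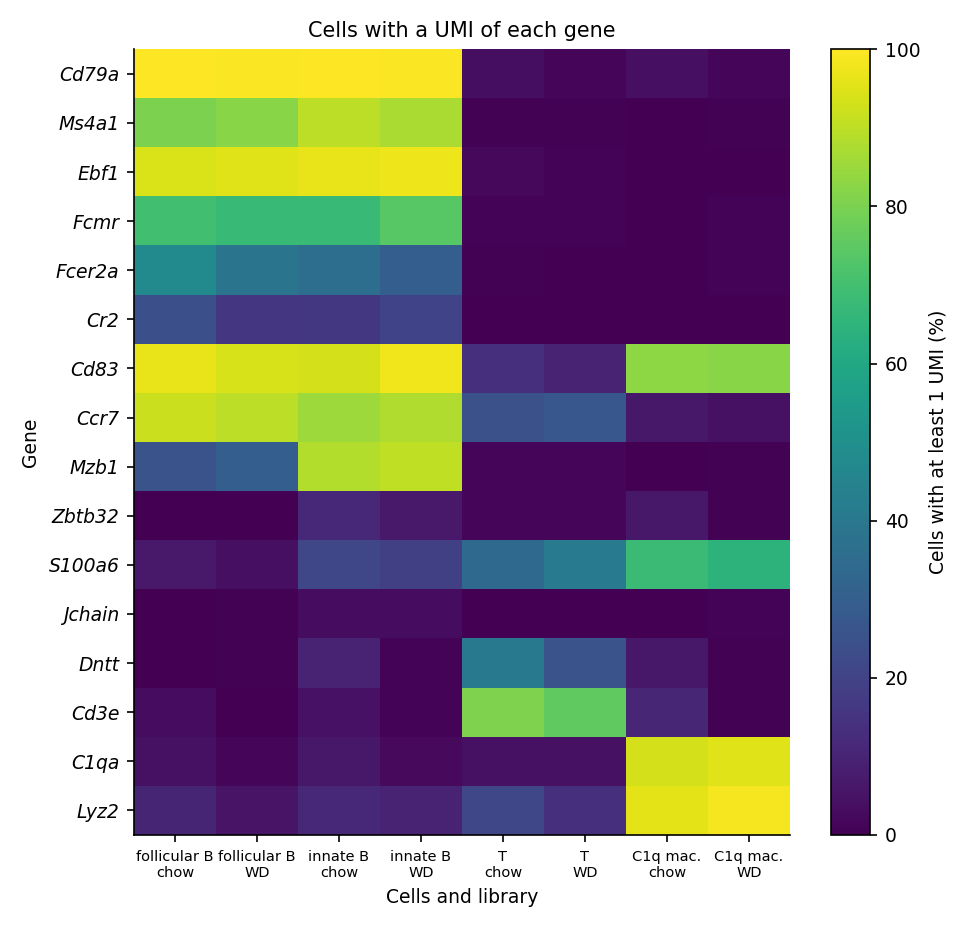
Share of cells with at least 1 UMI of each gene (colour scale, %) in follicular-type B cells, innate-like B cells, T cells and C1q macrophages (columns, by library); genes are in rows. Cd79a, Ms4a1 and Ebf1 were found in over 80% of both kinds of B cell, and Mzb1, which the rule limits, in 25.6% (chow) and 30% (WD) of follicular-type against 88.5% and 90.5% of innate-like B cells.

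The thresholds separated cells that lay close together. Members with 3 B cell UMIs (6 chow and 16 WD cells) held Ebf1 at 1437 and 1914 CPM, and cells just outside with 2 (5 and 26 cells) at 1271 and 1478 CPM. Members with 1 innate-like UMI (34 and 123 cells) held Ebf1 at 1672 and 1524 CPM and Fcer2a at 332 and 228 CPM. Cells just outside with 2 such UMIs (29 and 80 cells) held Ebf1 at 1425 and 1327 CPM and Fcer2a at 188 and 211 CPM. Their median depths were 2800.5 and 2298 UMIs inside and 2999 and 2527.5 outside. Of all members, 39.5% in chow and 41% in WD held 1 innate-like UMI, in most cases of Mzb1.

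Follicular-type B cells made up 9.60% of kept chow cells (7.75 to 11.7%) and 14.6% of kept WD cells (13.1 to 16.2%), a ratio of 1.52 (1.19 to 1.95). The intervals of the 2 libraries did not overlap. Cells with a UMI of Dntt, the terminal transferase of immature lymphocytes, made up 26.8% of kept cells in chow and 12.1% in WD. Of cells without a Dntt UMI, follicular-type B cells made up 13.1% (10.6 to 15.9%) and 16.5% (14.8 to 18.2%), and the ratio of 1.26 had an interval of 0.984 to 1.61. Innate-like B cells made up 6.81% (5.25 to 8.66%) and 9.22% (8.0 to 10.6%) of kept cells. Within the B cells, 58.5% (86 of 147 cells, 50.1 to 66.6%) were follicular-type in chow and 61.2% (300 of 490, 56.8 to 65.6%) in WD, and these intervals overlap. A share depends on every other cell type captured, and nothing here measures the number of B cells per aorta.

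**Figure D2:**
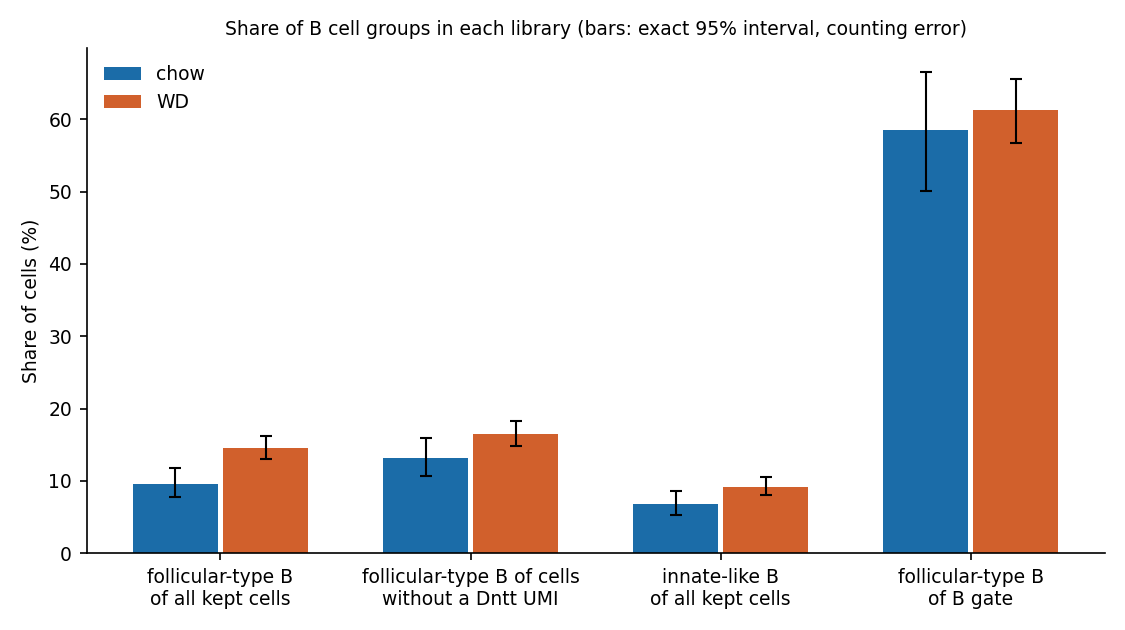
Share of cells (%, vertical axis) in the chow and WD libraries for follicular-type B cells of all kept cells, of cells without a Dntt UMI and of all gated B cells, and for innate-like B cells of all kept cells; black bars are exact 95% intervals. The share of all kept cells was 9.60% in chow and 14.6% in WD, while the share of B cells was 58.5% and 61.2%.

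The profile against all other kept cells is a description, since the rule used these cells' counts and since the other cells include the innate-like B cells. Of 987 genes with at least 100 UMIs in members, 111 (11.2%) were at least 2-fold higher in members in both libraries and 38 (3.85%) at least 2-fold lower. Fcer2a led, at 306 CPM in chow and 223 CPM in WD against 14.0 and 18.4 CPM in the other cells (log2 ratios of 4.42 and 3.59). Its ratio was the highest of the 25 leading genes in chow, and Vpreb3 had the highest in WD.

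Of the antigen receptor and its signalling genes, 7 of 13 measured were at least 2-fold higher in both libraries. Cd79a, the signalling chain used by the rule, stood at 2075 and 2251 CPM against 193 and 248 CPM in the other cells. Cd22, an inhibitory receptor that binds sialic acid, stood at 128 and 147 CPM against 10.8 and 16.9 CPM. Bank1, a scaffold protein of antigen receptor signalling, stood at 408 and 378 CPM against 41.9 and 49.98 CPM. Members of the list below 2-fold in at least 1 library included Lyn, a kinase of the receptor (log2 0.91 and 0.22), and Ptpn6, a phosphatase (0.78 and 0.48). The transcript Gm43603 (log2 3.79 and 3.30) is annotated antisense to Bank1, at chr3:135904344-136167184 (GRCm38, + strand). The labels do not say whether counting used strand, so its reads cannot be told apart from those of Bank1. Gm43291 (3.26 and 3.30), a long non-coding RNA at chr6:70719074-70740554, spans the joining segments and constant gene of the kappa light chain on the same strand, so the gene of origin of its reads is uncertain.

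Among B cell transcription factors, 5 of 11 measured were at least 2-fold higher in both libraries. They were Ebf1 (log2 3.58 and 3.28), Mef2c (3.30 and 2.84), Spib (3.15 and 2.51), Bcl11a (2.44 and 2.22) and the octamer coactivator Pou2af1 (2.07 and 2.18). Ikzf1, which acts in all lymphocytes, differed in sign between the libraries (-0.84 and 0.23). Octamer factors bind ATTTGCAT, and early B cell factor binds TCCC and GGGA separated by any 2 bases. Both motifs were searched on both strands in the promoters of the 25 leading genes. Promoters, from 250 bases before to 50 after the start, were taken from RefSeq (GRCm38.p6), where 18 of the 25 genes matched, with 24 starts. Of these 18 genes, 1 held the octamer and 1 the early B cell factor motif, while 1.74% and 0.904% of all 32851 promoters did. The 250 bases before the start of both genes are shown 5′ to 3′ with the match in capitals, since they are the leading genes with a match. The first lies at chr7:30879029-30879278 (- strand) and its match starts at base -49, and the second at chr10:75948050-75948299 (+ strand) with its match at base -45. A match of letters is a description and not a bound site.
Cd22: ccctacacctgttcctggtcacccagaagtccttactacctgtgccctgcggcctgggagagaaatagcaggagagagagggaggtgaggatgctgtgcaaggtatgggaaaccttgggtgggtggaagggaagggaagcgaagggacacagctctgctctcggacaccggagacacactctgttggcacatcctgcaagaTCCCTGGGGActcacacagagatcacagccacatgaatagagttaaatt
Vpreb3: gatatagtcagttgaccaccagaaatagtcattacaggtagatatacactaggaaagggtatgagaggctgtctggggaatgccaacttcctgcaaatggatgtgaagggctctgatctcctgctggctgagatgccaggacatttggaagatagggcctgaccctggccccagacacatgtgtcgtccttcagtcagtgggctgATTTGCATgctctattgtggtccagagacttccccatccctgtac

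Of the follicular B cell list, 8 of 12 measured genes were at least 2-fold higher than in the other cells in both libraries, with medians of 2.35 and 1.87 against 0.12 and 0.14 over all 987 genes. Besides Fcer2a, Fcmr and Cd22, these were Cd55, a complement regulator (3.29 and 3.07), Ccr7, the receptor that guides cells into lymph nodes (2.60 and 2.00), Cxcr5, the receptor that guides cells into follicles (2.45 and 2.31), Cd38 (2.25 and 1.75) and Gpr183, an oxysterol receptor that positions B cells (1.16 and 1.02). The egress receptor S1pr1 (1.13 and 0.93) was below 2-fold in WD.

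Of 11 measured MHC class II presentation genes, 4 were at least 2-fold higher than in the other cells in both libraries. They were H2-Ob (log2 3.18 and 2.96), H2-Oa (2.71 and 2.47) and H2-DMb2 (3.34 and 2.90), whose products act in peptide loading, and Cd74, the invariant chain. Cd74 was at 29334 and 28359 CPM against 10925 and 13206 CPM. The class II chains H2-Aa (1.12 and 0.72) and H2-Ab1 (0.78 and 0.52) and the peptide loading gene H2-DMa (0.63 and 0.69) were below 2-fold in at least 1 library, and H2-DMb1 was lower in members (-0.69 and -0.57). The other cells include macrophages, which also carry class II molecules.

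Scd1, a fatty acid desaturase of the cholesterol and lipid list, was also among the leading genes, at 497 and 605 CPM against 44.9 and 60.2 CPM, with a UMI in 73.3% and 69.7% of members. Lower in members were Cst3, a protease inhibitor of myeloid cells (149 and 179 CPM against 2025 and 1980 CPM), Vim, an intermediate filament (log2 -2.14 and -2.72), and Crip1 (-2.10 and -2.16). All 3 measured genes of the B-1 and innate-like list, of 16 in the files, were at least 2-fold lower in both libraries. The list is not particular to B cells. It summed to 4921 and 4503 CPM in T cells and to 3300 and 3692 CPM in innate-like B cells.

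**Figure D3:**
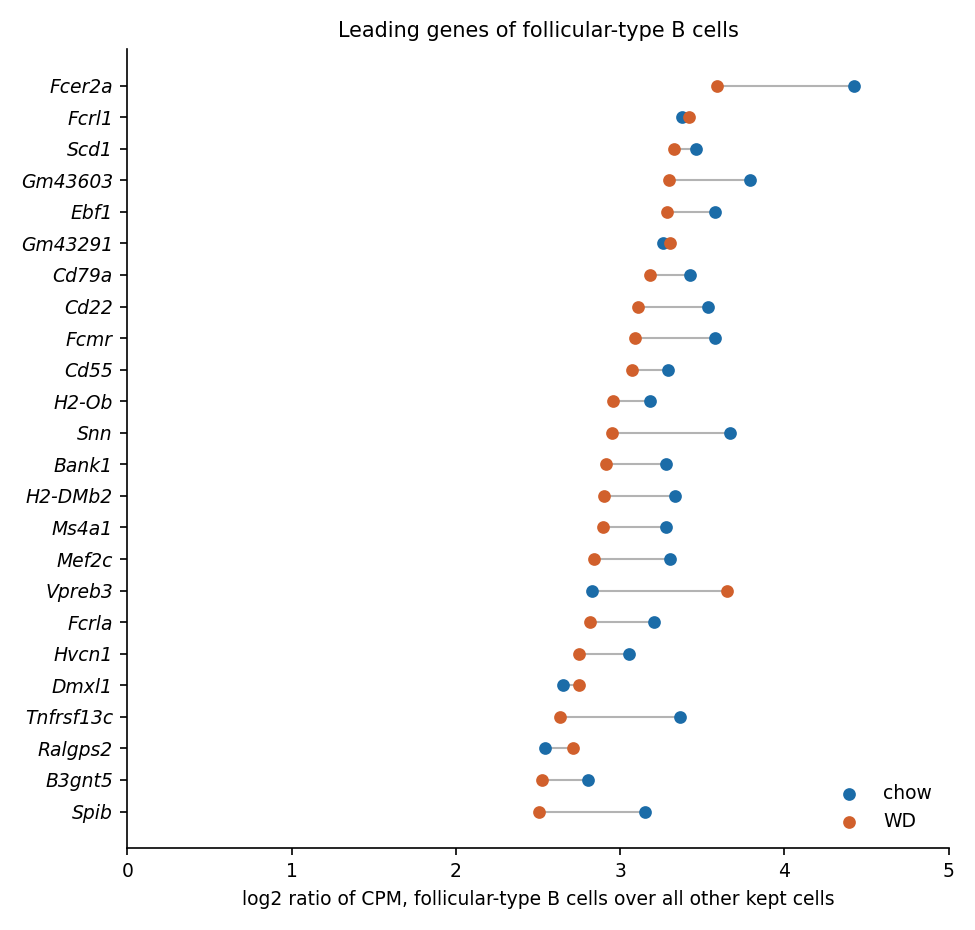
Log2 ratio of CPM in follicular-type B cells over all other kept cells (horizontal axis) for leading genes (rows), with 1 point per library. Fcer2a stood at 4.42 in chow and 3.59 in WD, and Vpreb3 at 2.83 and 3.65.

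Innate-like B cells, which passed the same limits but held at least 2 UMIs of the innate-like genes, were the most similar cells and are compared here as a description, with 61 chow and 190 WD cells. Of the 1992 genes that reached 100 UMIs summed over the 2 kinds of B cell, 2 (0.1%) were at least 2-fold higher in follicular-type cells in both libraries and 25 (1.26%) at least 2-fold lower. The innate-like cells were deeper, at medians of 3742 and 2953.5 UMIs, and with cells thinned to 1000 UMIs the counts were 1 and 4. With the innate-like cells held to at least 4 UMIs of their genes, the counts were 23 and 41. The minimum of 100 UMIs was applied anew in both settings, so fewer than 1992 genes were tested. These counts cannot be set directly beside 2 and 25. Without a limit on size, 569 of the 1992 genes were higher in follicular-type cells in both libraries and 678 lower, which is the background of the list counts that follow. The 5 neutrophil markers summed to 409 UMIs (548 CPM) in WD innate-like cells, 392 of them in 1 cell, and to 13 (18.3 CPM) in WD follicular-type cells. In chow they summed to 0 and 1 UMIs. Without that cell, a setting chosen after the values were seen, the numbers past 2-fold were again 2 and 25, and it held 2 of the 508 S100a6 UMIs and 0 of the Jchain UMIs of WD innate-like cells.

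S100a6, a calcium-binding protein outside the rule, had 10 UMIs in chow and 17 in WD in follicular-type cells, against 156 and 508 in innate-like cells (log2 -3.80 and -4.79). Other lower genes of the B-1 and innate-like list were Anxa2 (-4.26 and -3.50), Lgals1 (-2.46 and -3.02), Ahnak (-2.17 and -2.77), Vim (-1.69 and -2.43) and Crip1 (-1.34 and -1.65). Of 7 measured list genes 6 were lower in both libraries, and Emp3 differed in sign (0.50 and -0.49). Jchain, the joining chain of secreted antibody, had 0 and 2 UMIs in follicular-type cells against 21 and 77. In innate-like cells it was at least 6.51-fold higher in chow, with a floor of 3 counts over the follicular-type cells, and 36.6-fold higher in WD. It was found in 2 chow and 6 WD innate-like cells. The growth-linked genes Stmn1 (-2.83 and -3.07), Tuba1b (-1.79 and -0.91), Hmgb2 (-1.53 and -0.47) and Tubb5 (-1.27 and -0.41) were lower in both libraries. Over 4 alternative settings the value of Stmn1, -2.83 here, ran from -3.71 to -1.34. In thinned cells Dntt was found in 6.56% of chow and 0.526% of WD innate-like cells, against 0% of members in each library. The part of such cells was not tested.

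Higher in follicular-type cells, by smaller factors, were Fcer2a (log2 1.13 and 0.95), Ets1, a factor that restrains plasma cell formation (1.09 and 0.93), Satb1, a chromatin organiser (0.67 and 1.03), Ccr7 (0.68 and 0.50) and Cd55 (0.46 and 0.72). Over 4 alternative settings the value of Fcer2a, 0.95 here, ran from 0.21 to 1.69. That of Ets1, 0.93 here, ran from 0.43 to 1.13. With cells thinned to 1000 UMIs, Fcer2a was found in 22 of 86 chow and 46 of 300 WD members. It was found in 11 of 61 and 27 of 190 innate-like cells, and the intervals of these shares overlap in each library. Of 13 measured follicular list genes 11 were higher in both libraries, and Cxcr5 was lower (-0.32 and -0.22). The list's medians were 0.46 and 0.45, against -0.03 and -0.02 over all 1992 genes. Of 12 measured class II genes 10 were higher in both libraries, Cd74 among them (0.44 and 0.43). The 2 genes past 2-fold, Hspa1a and Ccl4, were concentrated in few cells, as described below.

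The diet libraries differed little in most genes of follicular-type B cells. Of the 2947 genes that reached 30 UMIs in the 2 libraries together, 125 (4.24%) were past 2-fold, 72 (2.44%) higher and 53 (1.8%) lower in WD, and the median log2 ratio was -0.01. The counting interval of the ratio lay above 1 for 89 genes (3.02%) and below 1 for 132 (4.48%). Cd74 was at 29334 CPM in chow and 28359 in WD, Cd79a at 2075 and 2251, Ms4a1 at 761 and 819, and Ebf1 at 1552 and 1520. The counting interval of each ratio but that of Cd74 (log2 -0.05) held 1.

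Ccl4, a chemokine for T cells and monocytes, had the highest ratio, with 16 UMIs in 7 chow members and 228 in 30 WD members, or 68.0 and 322 CPM (log2 2.22, ratio 4.73, 2.85 to 8.41). A single WD cell held 96 of these UMIs. Members with at least 2 Ccl4 UMIs, a limit set after the values were seen, were 2 of 86 in chow (2.33%) and 14 of 300 in WD (4.67%, 2.57 to 7.71%), and the WD ones held 93.0% of all Ccl4 UMIs of WD members. Those 14 cells had Ebf1 at 0.991 times (0.741 to 1.30) the level of the other members. They had the immediate early gene Egr1 at 12.9 times (7.02 to 23.3), with UMIs in 4 of the 14 cells, and the activation marker Cd83 at 1.51 times (1.25 to 1.81). The 2 chow cells had Cd83 at 0.352 times (0.129 to 0.770) and 0 UMIs of Egr1. Without the Ccl4-rich cells its log2 ratio was 0.11, and among members with no innate-like UMI it was 0.31. Ccl4 was also higher in WD in innate-like B cells (8 and 85 UMIs, log2 1.82, ratio 3.60, 1.75 to 8.61) and in all other kept cells (log2 0.88).

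Other genes higher in WD had few counts in chow. D16Ertd472e had 2 and 28 UMIs, Rfwd2, a ubiquitin ligase, 2 and 29, and Mthfs, an enzyme of folate metabolism, 3 and 33. Gramd1a, a cholesterol transporter of the endoplasmic reticulum, had 6 and 56 UMIs (log2 1.59, ratio 3.10, 1.34 to 8.79), against 0.02 in all other cells. Abca1, a cholesterol exporter, had 8 and 54 (log2 1.14, ratio interval 1.06 to 5.45), and was 0.58 in all other cells. All 5 measured genes of the cholesterol and lipid list were higher in WD, with a median of 0.11, and Abca1 was the one whose interval excluded 1. The median of the same genes was 0.42 in all other kept cells and -0.16 in innate-like B cells. Over all 2947 genes 1449 were higher and 1498 lower in WD.

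Lower in WD were 3 non-coding transcripts that neighbour each other on chromosome 17. AY036118 had 33 UMIs in chow and 23 in WD (140 and 32.4 CPM, log2 -2.08), Gm42418 had 75 and 80 (-1.49) and Gm26917 had 64 and 72 (-1.41). They were lower in all other kept cells too (-2.10, -1.05 and -1.70), and AY036118 overlaps Gm42418 on the opposite strand, so their reads may be shared. The ribosomal protein pseudogene Rpl27-ps3 (119 and 139 UMIs, -1.36) shares sequence with its parent gene, so its counts are uncertain, and it was also lower in all other cells (-0.93). Surf4, a cargo receptor of secretion (17 and 17 UMIs, -1.55), and Rbm22, a splicing factor (27 and 31 UMIs, -1.37), were at 0.12 and -0.16 in all other cells.

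**Figure D4:**
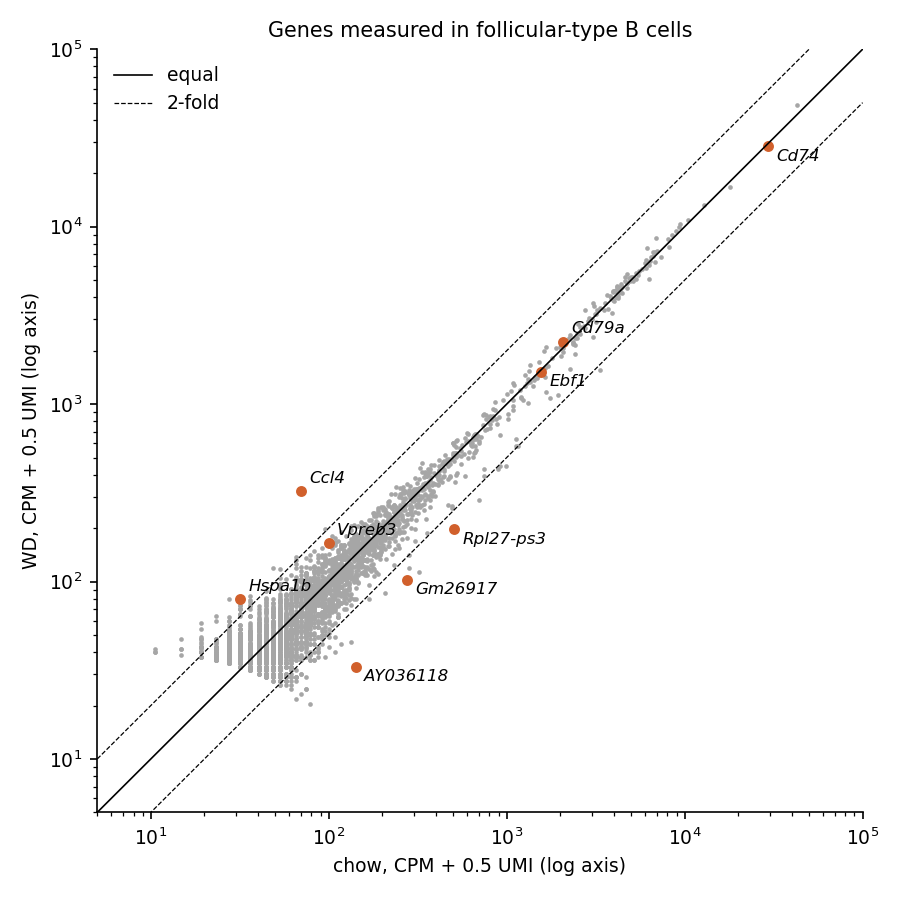
CPM with 0.5 UMIs added in WD members (vertical log axis) against chow members (horizontal log axis) for 2947 genes, 1 point per gene; the solid line marks equal levels and the dashed lines a 2-fold difference. Cd74, Cd79a and Ebf1 lie on the line of equal levels, Ccl4 (log2 2.22) above it and AY036118 (-2.08) below it.

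Gene lists are described beside all 2947 genes, of which 1449 were higher and 1498 lower in WD, with 89 (3.02%) intervals above 1 and 132 (4.48%) below. In the list of the BAFF receptors and survival genes, which keep mature B cells alive, 8 of 9 measured genes were lower in WD, with a median of -0.45. Tnfrsf13c, the receptor for the survival factor BAFF, had 44 UMIs in chow and 78 in WD (187 and 110 CPM, log2 -0.76, ratio 0.401 to 0.871), and was -0.02 in all other cells. It was lower in WD in innate-like B cells too, at 189.9 CPM in chow and 119.3 in WD (48 and 89 UMIs). In thinned cells Tnfrsf13c was found in 15.1% (8.3 to 24.5%) of chow and 9% (6.0 to 12.8%) of WD members, and these intervals overlap. Tnfrsf13b (TACI) was at -0.62 with an interval of 0.368 to 1.17, and the anti-apoptotic genes Bcl2 and Mcl1 were at -0.52 and -0.45 with intervals that held 1. With a minimum of 100 UMIs per gene, which leaves fewer of the genes, the list's median was -0.05. In innate-like B cells the median was -0.07. Whether the kinds of B cell differ was not tested.

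Of 12 measured mitochondrially encoded genes 11 were higher in WD, with a median of 0.20, and 7 had an interval above 1. Over all genes 3.02% had such an interval, but the list cannot be set directly beside that share. Intervals are narrower for genes with more UMIs, and several genes of the list had high counts. Mt-Atp6 had 1626 UMIs in chow and 6101 in WD, and mt-Co3 had 1439 and 5380. Small shifts can therefore exclude 1 in such genes but not in genes with few UMIs. Mt-Atp6, a subunit of ATP synthase, was at 6913 and 8604 CPM (log2 0.32), and the respiratory chain genes mt-Co3 and mt-Nd4 were at 0.31 and 0.34. The median was 0.17 in innate-like B cells and 0.10 in all other cells. The median share of mitochondrial UMIs per member was 3.00% in chow and 3.57% in WD. These shares also follow cell stress and handling, whose part was not tested.

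The follicular list had a median of 0.00 over 15 genes, with Fcer2a lower (72 and 158 UMIs, log2 -0.46, ratio 0.548 to 0.976) and no other interval that excluded 1. With cells thinned to 1000 UMIs, Fcer2a was found in 25.6% (16.8 to 36.1%) of chow and 15.3% (11.5 to 19.9%) of WD members. Cr2 was at -0.53 with an interval of 0.421 to 1.16. The MHC class II list had a median of -0.01, with H2-Aa at -0.13 (0.865 to 0.966). Of costimulators, Cd86 was lower (87 and 186 UMIs, -0.49, 0.547 to 0.926), and Cd83 was at -0.04. The homing receptor Cxcr4 was lower (136 and 278 UMIs, -0.56, 0.550 to 0.839), against -0.24 in all other cells, while Ccr7 was at -0.14 with an interval that held 1. In innate-like B cells Cxcr4 was lower in WD too, at 407.5 CPM in chow and 258.8 in WD (103 and 193 UMIs). Vpreb3, a chaperone of the nascent antigen receptor known from immature B cells, had 23 and 116 UMIs (0.74, 1.06 to 2.74). In thinned cells Vpreb3 was found in 14.0% (7.42 to 23.1%) of chow and 13.7% (9.99 to 18.1%) of WD members. Ikzf1 was at 0.87 (1.12 to 3.17) and Ddit3, a factor of the unfolded protein response, at 1.24 (1.14 to 5.83). The type I interferon list had a median of -0.18 over 7 genes, with every interval holding 1.

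**Figure D5:**
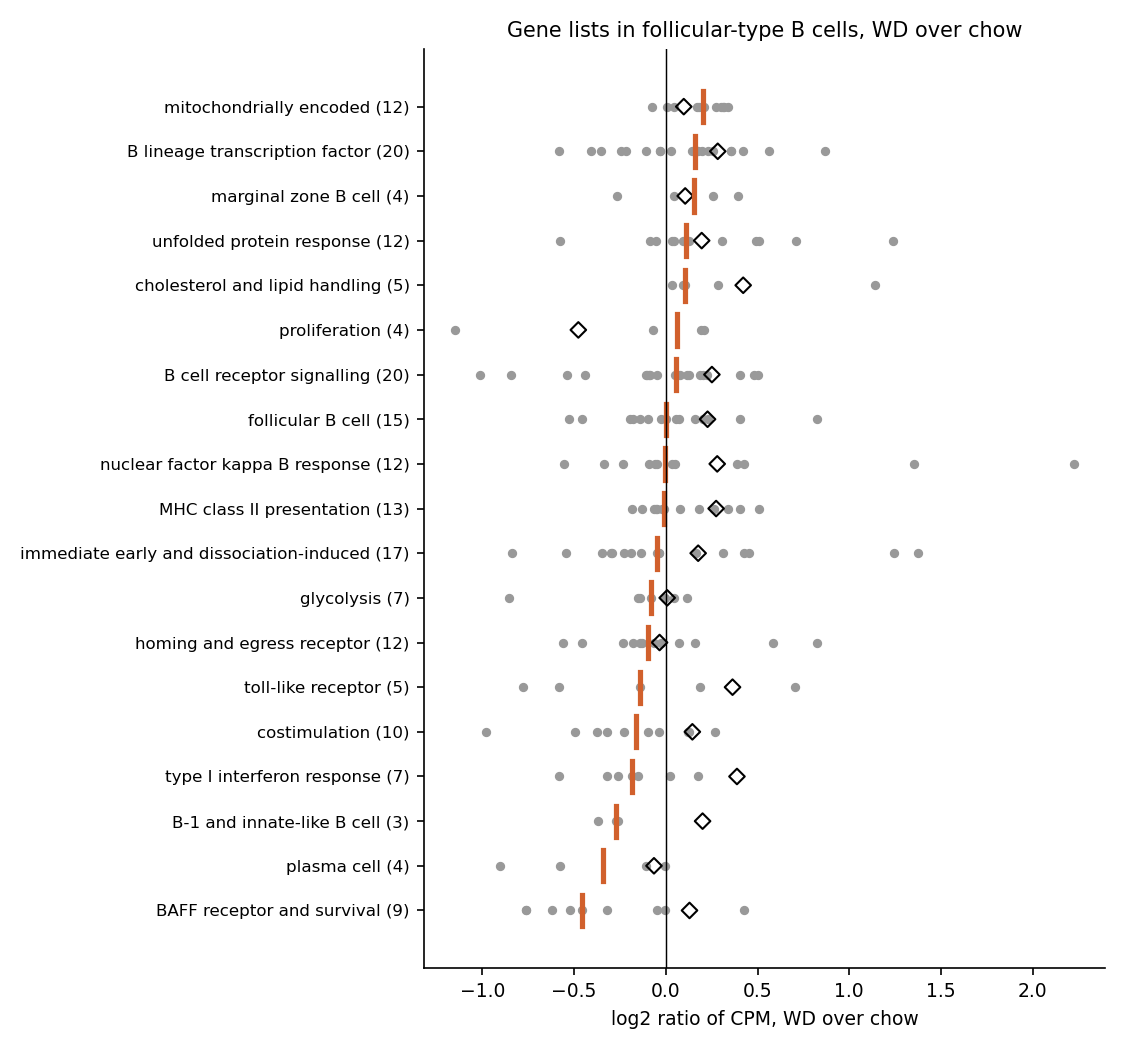
Log2 ratio of CPM, WD over chow, in follicular-type B cells for the gene lists with at least 3 measured genes (rows, with the number measured); grey points are genes, the orange bar is the list's median and the open diamond the median of the same genes in all other kept cells. The mitochondrially encoded list had a median of 0.20 and the BAFF receptor and survival list one of -0.45.

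Variation among members was measured as the variance over the mean of a gene's UMIs (1 for a Poisson count), with cells thinned to 1000 UMIs. Of 3446 genes with a mean of at least 0.02 UMIs per cell in each library, 31 were above 1.5 in both. Ordered by the lower value of both libraries, Hspa1a, an inducible heat shock chaperone, came first (11.7 in chow and 26.8 in WD). Next came the cytoskeletal gene Actb (4.72 and 4.85), the nuclear RNA Malat1 (4.64 and 6.40), Klf2, a factor of quiescence and trafficking (4.49 and 3.43), and the chaperone Hsp90aa1 (3.42 and 3.28). Cd74 was at 3.01 and 2.80, and the AP-1 factors Junb and Jund at 3.83 and 1.96, and 3.43 and 2.36. In WD, Ccl4 was at 13.7 (0.965 in chow) and the heat shock gene Hspa1b at 5.35 (1.65 in chow), both above Actb.

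Hspa1a was carried by few cells. Members with at least 5 UMIs, a limit set after the values were seen, were 7 of 86 in chow (8.14%, 3.34 to 16.1%) and 15 of 300 in WD (5%, 2.83 to 8.11%), and held 90.4% and 94.1% of its UMIs. In these cells the chaperone genes Hsp90aa1 (7.28 and 8.77 times), Dnajb1 (10.0 and 10.3 times) and Hspa8 (2.27 and 3.51 times) were higher than in the other members. Ebf1 was at 1.03 and 0.861 times, with intervals that held 1, and Cd83 at 0.693 and 0.306 times. Such transcripts also follow tissue digestion, whose part was not tested.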

How the data were processed

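The 2 droplet libraries of aortic CD45+ cells (10x 3′ chemistry, 10 pooled aortas per diet) were analysed. Per the submitters' processing notes, Cell Ranger, STAR and mm10 were used, with no version in these notes. The deposited values are UMI counts per gene (27998 genes, 27645 matched by ID to GENCODE) and barcode, not normalized; immunoglobulin and T cell receptor constant genes were not analysed here.

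Cells with at least 200 genes and at most 10% mitochondrial UMIs were kept. Scrublet (scanpy 1.11.5) called 4 chow and 2 WD barcodes (0.440% and 0.0963%), under the rates of 0.727% and 1.66% given to it. None was a member and none was removed, and unseen doublets remain possible. UMIs were summed per library and cell group and scaled to CPM, and log2 ratios had 0.5 UMIs added. Ratios carry exact conditional intervals, shares exact Clopper-Pearson intervals and levels Poisson intervals. UMI totals per library were 4608033 and 8782901. With 1 library per diet no test was run. Ratio and interval code was tested on simulated data (Python 3.11.15, numpy 2.4.6, scipy 1.17.1).

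T cells were cells with at least 3 Cd3 UMIs and at most 1 B cell UMI, and C1q macrophages cells with at least 3 C1q UMIs. Genes named are the 25 leading profile genes (by the lower ratio of both libraries, at least 100 UMIs), the 12 highest and 12 lowest against innate-like B cells and between diets (at least 30 UMIs, interval excluding 1), the 15 most variable, up to 8 members of each of 32 lists, and the genes of the rule. Some further list members (Ccr7 and Cr2 among them), Ddit3 and the genes of the Hspa1a-rich and Ccl4-rich cells were chosen after their values were seen. Some genes of these sets are not reported here. The members and lists were chosen with earlier results of these data known. Alternatives were other limits of the rule, other totals, thinning, other count minimums and leaving out the top cell of each gene.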

Additional observations from a re-analysis of the deposited data

Results flagged for a closer look

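For 3 genes the WD over chow difference in follicular-type B cells went the opposite way from that in all other kept cells, with counting intervals that excluded 1 on both sides; the difference between the cell groups was not tested. D16Ertd472e was at log2 2.08 in follicular-type B cells (2 UMIs in chow and 28 in WD) and at -0.31 in the other cells. Rexo1 was at 1.70 (4 and 41 UMIs) and at -0.26. Hspa1b, a heat shock chaperone, was at 1.38 (7 UMIs in 4 chow cells and 56 in 21 WD cells, 16 of them in 1 cell) and at -0.15. Members with at least 5 Hspa1a UMIs held 5 of its chow UMIs and 47 of its WD UMIs.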

How the results depend on the processing

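No paired analysis was possible because each diet has 1 library. The share of follicular-type cells in WD was 12.6% with at least 5 B cell UMIs and 13.1% with no T cell, C1q or Lyz2 UMI allowed. With no innate-like UMI allowed the shares were 5.80% in chow and 8.59% in WD, and with cells without a Dntt UMI as the total 13.1% and 16.5%. The ratio of shares ran from 1.26 to 1.67 over 10 settings. The number of genes at least 2-fold higher and lower in WD was 493 and 294 with a minimum of 10 UMIs and 4 and 11 with a minimum of 100, out of more and fewer genes tested. Without the top cell of each gene 148 were higher. The number lower was 34 with no innate-like UMI allowed and 35 in thinned cells, each out of fewer genes tested. With a minimum of 30 UMIs, 7.57% of measured genes were at least 2-fold higher in members than in the other cells in both libraries. Against innate-like B cells, 23 genes were higher and 41 lower when these held at least 4 UMIs, and 1 and 4 in thinned cells. Both settings left fewer genes tested. Without Hspa1a-rich cells, a setting chosen after seeing the data, 1 was higher. The diet median of the B-1 and innate-like list (3 genes, -0.27) was -0.89 with at least 2 B cell UMIs, -0.25 with a mitochondrial limit of 5% and when scaled without mitochondrial and ribosomal genes, -0.042 with no innate-like UMI, -0.16 without precursor UMIs, -0.20 without the 5% deepest cells and -0.13 without top cells. The plasma cell list (4 genes, -0.34) reversed to 0.062 without Ccl4-rich cells, also chosen after seeing the data. The proliferation list (4 genes, 0.06) was 0.22 with no T cell, C1q or Lyz2 UMI, and the B lineage factor list (0.16) was 0.28 without top cells. The cause of these shifts was not tested. The BAFF list ran from -0.72 to -0.048 and the mitochondrially encoded list between 0.14 and 0.25 over the settings run. Of 432 values of named diet genes under the alternatives 427 stayed within their counting interval and 0 reversed. These genes were chosen for intervals that excluded 1, and the alternatives reuse most of the same cells. Such agreement was therefore in part fixed in advance and is no independent check. Ccl4, at 2.22, was 0.11 without the Ccl4-rich cells, which does not count as reversed.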
